A study of Homo sapiens with 4 samples.

Results

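The S100 proteins are small calcium-binding proteins, and 10 of their genes are described here in KYSE410, an established human cell line of oesophageal squamous cell carcinoma. The members were chosen by name (S100A2, S100A4, S100A6, S100A7, S100A8, S100A9, S100A10, S100A11, S100A12 and S100P). They correspond to 11 of the 45033 probe sets on the array and to 10 of the 17185 named genes. The cells had been exposed for 24 h to the cytokine TNFα (tumour necrosis factor), the cytokine IL1β (an interleukin), LPS (lipopolysaccharide of Gram-negative bacteria) or PBS (phosphate-buffered saline, the solvent). All cultures shared the same serum-containing medium, and no source used here states a dose. RNA from each condition was measured on 1 one-colour array, so the 4 arrays give no replicate error and no test, and their number limits the precision.

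S100 proteins carry a pair of EF-hand calcium-binding loops and mostly work as dimers. Inside cells most of them bind annexins, myosin and other partners when calcium rises. Several are also released as alarmins, danger signals that act on the receptors RAGE and TLR4. S100A8 and S100A9 form calprotectin, which withholds metal ions from microbes. It is abundant in neutrophils and monocytes, and stratified squamous epithelium also makes it. Most S100A genes lie side by side on chromosome 1, around a block of genes for the cornified envelope of squamous cells.

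Upstream sequences are given for 5 members because they stand for the 2 patterns found below. S100A8, S100A9 and S100A12 were highest on the TNFα array, whereas S100P and S100A10 were highest on the LPS array. Each is the stretch of 250 bases before an annotated transcript start in RefSeq (build GRCh38.p14), 5′ to 3′ on the gene's own strand. Capitals mark matches on either strand to 5 motifs, namely the C/EBP motif TTGCNNAA, the AP-1 motif TGANTCA, the STAT motif TTCNNNGAA, the TATA motif TATAAA and the NF-κB consensus. S100A8 has 3 annotated starts and the middle one is shown.
S100A8, chr1:153391074-153391323, minus strand: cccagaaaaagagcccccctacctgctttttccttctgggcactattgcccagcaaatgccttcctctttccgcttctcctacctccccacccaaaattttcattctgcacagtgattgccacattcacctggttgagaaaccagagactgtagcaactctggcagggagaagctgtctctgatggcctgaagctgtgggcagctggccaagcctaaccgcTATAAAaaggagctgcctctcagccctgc
S100A9, chr1:153357604-153357853, plus strand: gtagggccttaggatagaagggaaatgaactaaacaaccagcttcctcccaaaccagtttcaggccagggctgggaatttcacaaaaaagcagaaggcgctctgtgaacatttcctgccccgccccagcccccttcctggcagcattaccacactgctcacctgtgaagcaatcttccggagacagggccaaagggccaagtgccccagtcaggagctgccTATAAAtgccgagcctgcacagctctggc
S100A12, chr1:153375622-153375871, minus strand: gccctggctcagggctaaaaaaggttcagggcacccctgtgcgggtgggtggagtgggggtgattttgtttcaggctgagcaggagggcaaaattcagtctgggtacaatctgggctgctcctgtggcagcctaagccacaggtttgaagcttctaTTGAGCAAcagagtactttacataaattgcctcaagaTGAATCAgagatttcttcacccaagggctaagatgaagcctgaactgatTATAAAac
S100P, chr4:6693628-6693877, plus strand: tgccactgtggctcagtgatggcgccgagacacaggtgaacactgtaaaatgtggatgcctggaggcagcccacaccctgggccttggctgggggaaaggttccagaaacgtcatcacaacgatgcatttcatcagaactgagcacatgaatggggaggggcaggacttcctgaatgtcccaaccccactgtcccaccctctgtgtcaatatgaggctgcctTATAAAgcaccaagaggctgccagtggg
S100A10, chr1:151993860-151994109, minus strand: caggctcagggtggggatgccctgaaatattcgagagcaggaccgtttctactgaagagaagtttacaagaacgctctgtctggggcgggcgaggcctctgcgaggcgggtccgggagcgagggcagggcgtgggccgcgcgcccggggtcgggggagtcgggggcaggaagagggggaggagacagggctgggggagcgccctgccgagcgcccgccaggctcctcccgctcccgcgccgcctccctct

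The capitals in S100A8, S100A9 and S100P are a TATA motif whose first base lies 29, 29 and 28 bases before the start. S100A12 holds a C/EBP match from base -94, an AP-1 match from base -57 and a TATA match from base -8, and none of the 3 overlap. S100A10 holds none of the 5 motifs in this window and its 250 bases are 71.2% G or C, against a median of 58% over all promoters. Over windows reaching 50 bases past the start, 6 of the 10 members hold the TATA motif in some window, against 11.5% of all 35116 promoter windows. The members have 13 windows, and 7 hold the motif, but 2 of these are overlapping S100A8 windows that share the same match. The C/EBP motif occurs in 2 member windows (S100A11 and S100A12) and in 10.5% of all windows. The AP-1 motif occurs in 2 (S100A12 and S100A2) and in 7.71% of all. No member window holds the NF-κB consensus or the STAT motif, which occur in 11.3% and 7.66% of all windows. A match is only a run of letters, and its absence here says nothing about a factor's binding elsewhere.

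Values are RMA intensities, which are array brightness after background correction and scaling, and differences are on the log2 scale. A gene counts as higher or lower when a pair of arrays was 2-fold or more apart and the larger value reached a floor, the median level over genes (8.02 on the log2 scale, intensity 260). A value under 2 times that of the array's 5000 random-sequence probes is called near background, which is an intensity of 108 to 113. Where the dimmer array was near background, the fold is taken against that limit and given as "at least". All 3 comparisons with PBS share the same PBS array. The squamous identity of the line was visible on every array, since 15 of 15 squamous markers were above near background. Among them was the basal keratin KRT5 (intensity 58314 with TNFα, 48523 with IL1β, 59820 with LPS and 49361 with PBS). All 15 reached the floor in each comparison with PBS. With TNFα 1 was higher (KRT13) and 1 lower (CDH1), and with IL1β only CDH1 was lower. With LPS 4 were higher (KRT14, KRT17, KRT4 and TP63) and CDH1 was lower. Among all genes at the floor 3.37% were higher and 3.4% lower with TNFα, 3.13% and 3.57% with IL1β, and 8.83% and 7.42% with LPS. The list's median log2 difference with LPS was 0.45, against 0.02 for all genes. Probe sets of the same gene offer the nearest thing to an error. They were read on the same arrays, so their disagreement does not measure variation between cultures or arrays. The log2 differences of the brightest pair of sets of a gene disagreed with an SD of 0.58 for TNFα (677 genes), 0.61 for IL1β (677 genes) and 0.76 for LPS (700 genes), each against PBS.

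**Figure D1:**
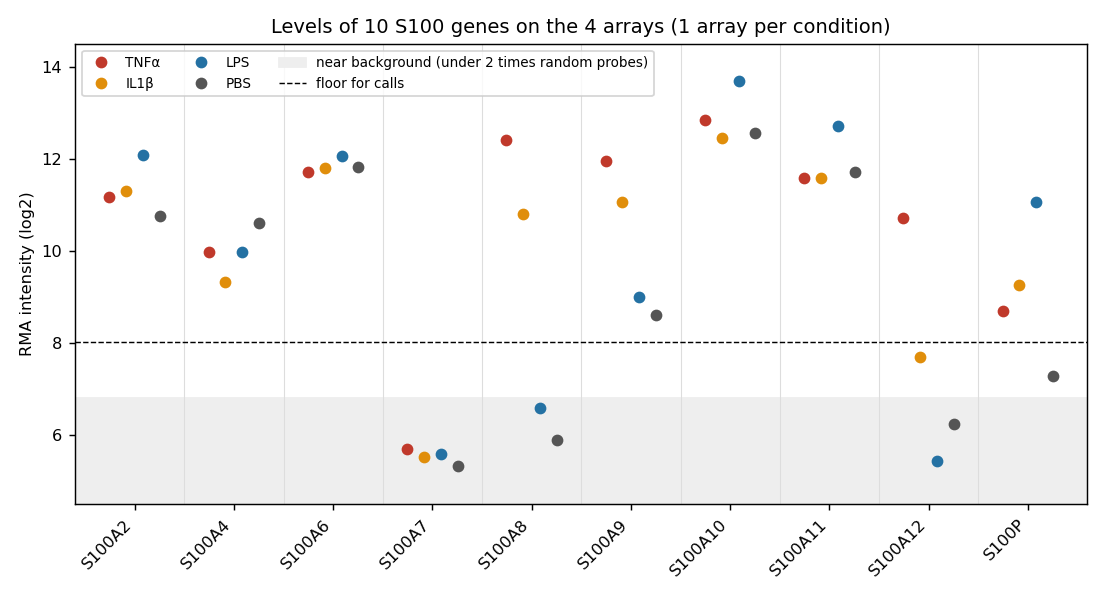
RMA intensity on the log2 scale of the 10 S100 genes, with 1 point per array (TNFα, IL1β, LPS and PBS from left to right within each gene). The dashed line is the floor for calls and the grey band is the range near background. S100A8 and S100A12 lie in the band with LPS and PBS, S100A7 lies in it on all 4 arrays, and S100P is highest with LPS.

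The calprotectin genes were high with both cytokines and low with LPS and PBS. S100A8 (probe set NM_002964), the smaller calprotectin subunit, had an intensity of 5440 with TNFα, 1782 with IL1β, 95.5 with LPS and 58.8 with PBS. Only the cytokine arrays were above near background, so TNFα exceeded PBS at least 50.3-fold for S100A8, and IL1β did so at least 16.5-fold. No fold can be given for LPS against PBS. S100A9 (NM_002965), the larger subunit, had an intensity of 3983 with TNFα, 2144 with IL1β, 508 with LPS and 389 with PBS. It was above near background everywhere, 10.2-fold higher with TNFα and 5.51-fold higher with IL1β. With LPS it was 1.30-fold higher than with PBS, a log2 difference of 0.38 that is smaller than the SD between probe sets. Among the 9419 genes at the floor on the TNFα or PBS array its difference ranked 13 from the highest, and 35 of 9427 with IL1β.

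S100A12 (NM_005621), calgranulin C, is a neutrophil alarmin whose gene lies between S100A9 and S100A8. It had an intensity of 1670 with TNFα, 207 with IL1β, 43.2 with LPS and 75.7 with PBS. It thus stood far out only on the TNFα array, at least 15.4-fold above PBS. With IL1β it stayed below the floor, and its fold over PBS was at least 1.91. The 3 genes shared the order TNFα, IL1β and then the other arrays, but their steps were unequal. TNFα exceeded IL1β 8.06-fold for S100A12 (log2 difference 3.01), 3.05-fold for S100A8 (1.61) and 1.86-fold for S100A9 (0.89). The last of these is short of 2-fold. The SD between probe sets for this pair of arrays was 0.49.

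S100A7, psoriasin, is an antimicrobial S100 protein of inflamed skin. Its intensity was 52.1 with TNFα, 45.8 with IL1β, 48.1 with LPS and 40.2 with PBS. All 4 values were near background, so no change could be detected for S100A7 on these arrays. Its close relative S100A7A, between 32.1 and 51.2, was near background on every array as well.

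S100P was the member that followed LPS most. S100P (NM_005980), a secreted ligand of RAGE that is often raised in carcinomas, had an intensity of 413 with TNFα, 614 with IL1β, 2150 with LPS and 156 with PBS. All 3 stimulated arrays exceeded the PBS array, by 2.64-fold, 3.93-fold and 13.8-fold in that order. With LPS its log2 difference of 3.78 ranked 8 of 9675 genes. The PBS value was above near background but below the floor.

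S100A10 and S100A2 were higher with LPS alone, and S100A11 came close to the 2-fold rule. S100A10 (p11), which pairs with annexin A2 at the plasma membrane, had an intensity of 7331 with TNFα, 5581 with IL1β, 13336 with LPS and 6020 with PBS. The LPS value was 2.22-fold above PBS, while the cytokine values lay within 1.22-fold of it. S100A2, a protein of basal squamous cells, had an intensity of 2315 with TNFα, 2528 with IL1β, 4358 with LPS and 1751 with PBS. It was 2.49-fold higher with LPS, and with TNFα and IL1β its log2 differences of 0.40 and 0.53 were smaller than the SD between probe sets. S100A11, a growth regulator of keratinocytes, had an intensity of 3080 with TNFα, 3088 with IL1β, 6681 with LPS and 3351 with PBS. With LPS it was 1.99-fold higher and thus just outside the 2-fold rule. S100A10 (2.22-fold) and S100A2 (2.49-fold) were the nearest inside it. Their log2 differences with LPS, 1.15 and 1.32, ranked 632 and 476 from the highest of 9675 genes.

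S100A6 and S100A4 showed other courses. S100A6, calcyclin, was the steadiest of the members above background, with an intensity of 3366 with TNFα, 3573 with IL1β, 4300 with LPS and 3624 with PBS. Its largest difference from PBS was 0.25 on the log2 scale, with LPS. S100A4, a metastasis-associated protein that binds non-muscle myosin, was lowest with IL1β and highest with PBS. Its brighter probe set had an intensity of 1001 with TNFα, 638 with IL1β, 1005 with LPS and 1562 with PBS, and IL1β was 2.45-fold lower than PBS. Its other probe set gave 898 with TNFα, 584 with IL1β, 829 with LPS and 1870 with PBS. The log2 differences from PBS were -0.64 and -1.06 with TNFα, -1.29 and -1.68 with IL1β, and -0.64 and -1.17 with LPS, brighter set first. Both sets thus put S100A4 below PBS on all 3 stimulated arrays. They share the PBS array, and only for IL1β did both sets reach 2-fold.

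**Figure D2:**
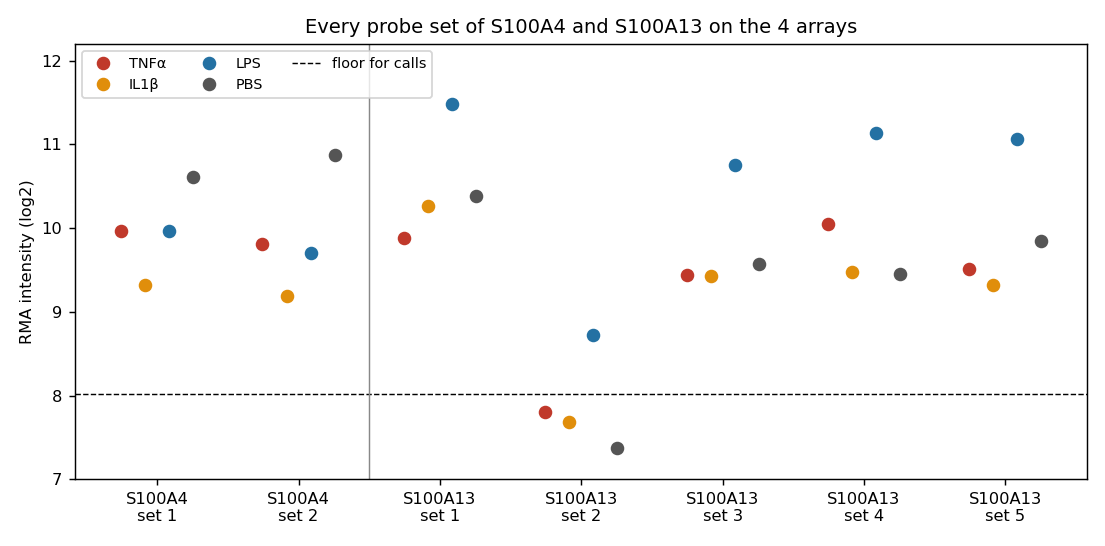
RMA intensity on the log2 scale for each probe set of S100A4 (2 sets) and S100A13 (5 sets), with 1 point per array and the floor for calls dashed. PBS is the highest array in both S100A4 sets, and LPS is the highest array in all 5 S100A13 sets.

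Against PBS, 4 of the 10 members were higher with TNFα (S100A8, S100A9, S100A12 and S100P) and none were lower. In that comparison 3.37% of 9419 genes at the floor were higher and 3.4% lower. With IL1β 3 members were higher (S100A8, S100A9 and S100P) and 1 lower (S100A4), where 3.13% of genes were higher and 3.57% lower. With LPS 3 members were higher (S100A2, S100A10 and S100P) and none lower, where 8.83% of genes were higher and 7.42% lower. Of the 10 members 9 reached the floor in the TNFα comparison, 8 in the IL1β comparison and 7 in the LPS comparison. Over all 10 measured members the median log2 difference was 0.39 with TNFα, 0.36 with IL1β and 0.54 with LPS, against -0.03, -0.03 and 0.02 over all genes. These medians include differences between values near background, such as those of S100A7 on all arrays and of S100A8 between LPS and PBS. Taken only over members at the floor, the median was 0.40 for TNFα, 0.25 for IL1β and 0.995 for LPS.

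The stimuli were then set directly beside each other. Against TNFα, LPS gave lower values for S100A8 (at least 48.2-fold), S100A12 (at least 14.8-fold) and S100A9 (7.84-fold). It gave higher values for S100P (5.21-fold) and S100A11 (2.17-fold). These are 2 members higher and 3 lower, where 9.93% of genes were higher and 7.09% lower. Against IL1β, LPS gave lower values for S100A8 (at least 15.8-fold) and S100A9 (4.22-fold). S100P (3.50-fold), S100A10 (2.39-fold) and S100A11 (2.16-fold) were higher, which makes 3 members higher and 2 lower, where 10.5% of genes were higher and 7.45% lower. TNFα and IL1β differed in S100A8 and S100A12 alone among the members, both higher with TNFα, where 1.87% of genes were higher and 1.74% lower. S100P was 1.49-fold lower with TNFα than with IL1β (log2 difference -0.57), short of 2-fold.

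**Figure D3:**
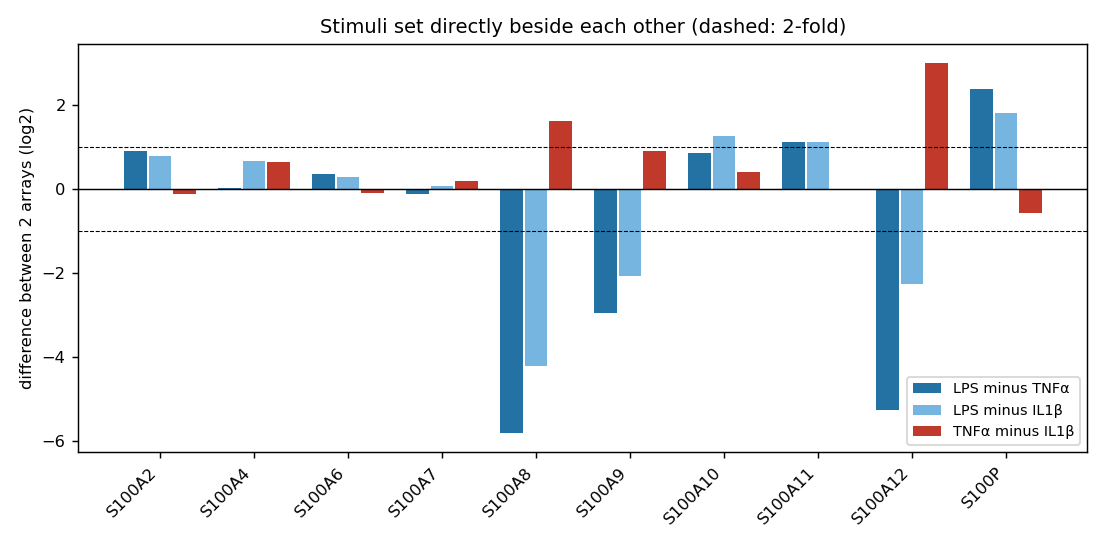
Log2 difference between 2 stimulated arrays for the 10 S100 genes: LPS minus TNFα, LPS minus IL1β and TNFα minus IL1β, with 2-fold dashed. S100A8, S100A9 and S100A12 lie far below 0 and S100P above 0 for LPS minus either cytokine. For LPS minus IL1β, S100A12 was below the floor on both arrays, so it does not count as lower there (at least 1.84-fold). Bars for S100A7, near background on all arrays, carry no measured difference.

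The 10 other S100 genes on the array were examined for the same courses. With LPS 3 of them were higher than with PBS, where 8.83% of all genes at the floor were higher, and with TNFα or IL1β none were. S100A14, a relative found in epithelia, had an intensity of 1268 with TNFα, 1506 with IL1β, 3868 with LPS and 1415 with PBS, 2.73-fold higher with LPS. S100A16, a widely expressed relative, had an intensity of 2827 with TNFα, 2614 with IL1β, 6581 with LPS and 3078 with PBS, 2.14-fold higher with LPS. S100A13, which takes part in the release of proteins that lack a signal peptide, had 5 probe sets, and its brightest was 2.14-fold higher with LPS. The log2 differences of its other sets with LPS were 1.35, 1.19, 1.69 and 1.21, so all 5 exceeded 2-fold in the same direction. The sets come from transcripts of the same gene and may share probe sequence.

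S100A1, a calcium regulator of heart and skeletal muscle, had an intensity of 144 with TNFα, 321 with IL1β, 185 with LPS and 255 with PBS. TNFα was thus 2.23-fold below IL1β. S100A3, S100A5 and S100Z differed from PBS by at most 0.53 on the log2 scale on any array. S100B and S100G were near background on all 4 arrays. Of the 20 S100 genes measured 16 reached the floor on some array, and 8 of these (50%) were highest on the LPS array, against 38.8% of the 10271 named genes that reached the floor.

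Along chromosome 1 the RefSeq order is S100A10, S100A11, then 47 other protein-coding genes, then S100A9, S100A12, S100A8, S100A7A, S100A7, S100A6, S100A5, S100A4, S100A3, S100A2, S100A16, S100A14, S100A13 and S100A1. The genes higher with a cytokine, S100A9, S100A12 and S100A8, are direct neighbours among the S100 genes. The genes higher with LPS, S100A2, S100A16, S100A14 and S100A13, also follow one another, and S100A10 and S100A11 (just under 2-fold) sit at the other end. Between the 2 runs, S100A6 to S100A3 were not higher by 2-fold on any array. S100P, on chromosome 4, was higher with all 3 stimuli.

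**Figure D4:**
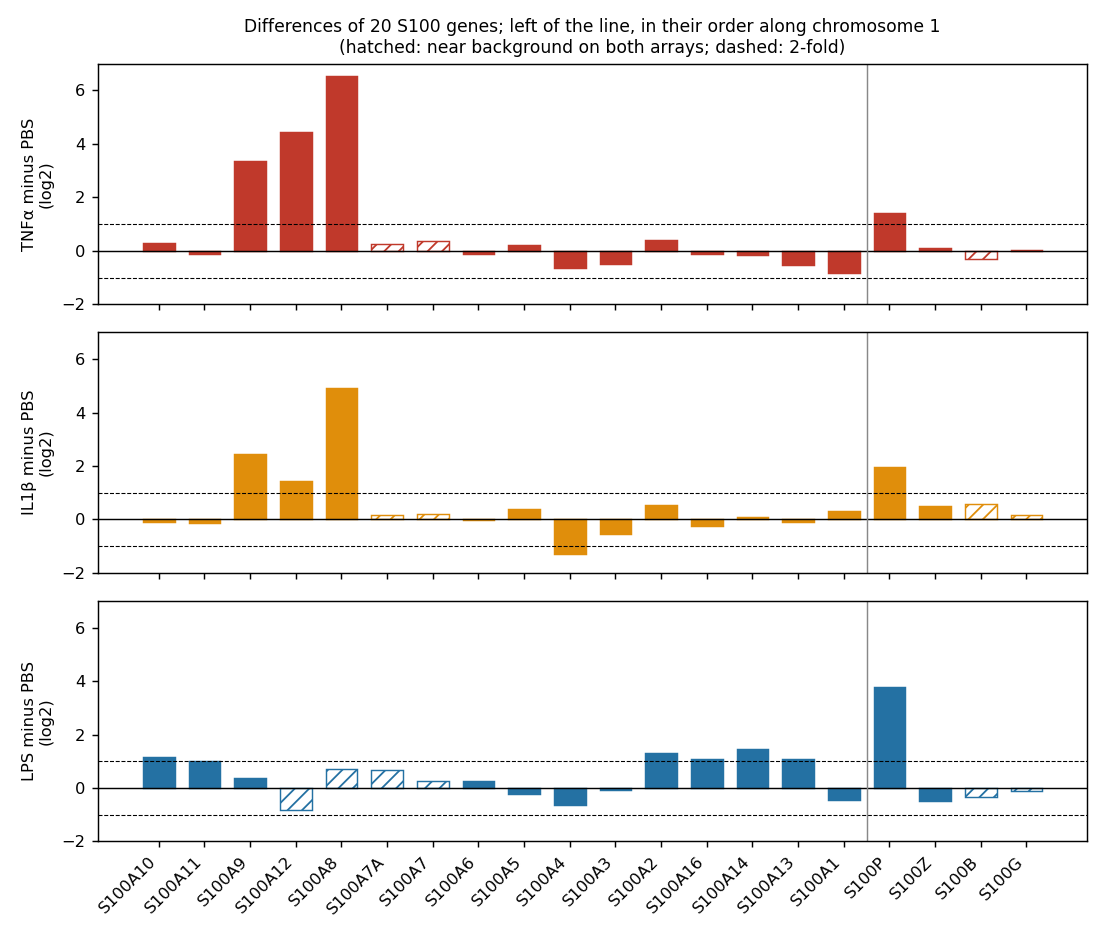
Log2 difference from PBS of 20 S100 genes for TNFα, IL1β and LPS, in their order along chromosome 1 left of the vertical line and with the genes of other chromosomes right of it. Hatched bars are near background on both arrays, and dashed lines mark 2-fold. The tallest bars with TNFα are at S100A8, S100A12 and S100A9, and with IL1β at S100A8, S100A9 and S100P. S100A12 also passes the 2-fold line with IL1β but stayed below the floor there. With LPS the tallest bar is at S100P, and S100A10, S100A2, S100A16, S100A14 and S100A13 also reach 2-fold.

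Of the 47 genes between S100A11 and S100A9, 39 belong to the cornified envelope list or to the list of S100-fused genes, whose proteins begin with an S100-like domain. The cornified envelope list had 32 measured members, of which 0 were higher with TNFα, 1 with IL1β and 3 with LPS, and none were lower than with PBS. Among all genes at the floor 3.37%, 3.13% and 8.83% were higher in those comparisons. Of the 32 listed genes 12, 14 and 15 reached the floor there, in the same order. The member higher with IL1β was SPRR2F (2.14-fold). With LPS they were the small proline-rich proteins SPRR1B (3.36-fold), SPRR1A (at least 3.47-fold) and SPRR2F (2.59-fold). The median log2 difference of the list with LPS was 0.18, against 0.02 for all genes. Of 5 measured S100-fused genes none were higher or lower in any comparison with PBS, and only CRNN, cornulin, reached the floor.

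Receptors and partners of S100 proteins were measured from lists. Their counts stand beside the shares of all genes higher than with PBS given above (3.37% with TNFα, 3.13% with IL1β and 8.83% with LPS). AGER, which encodes RAGE, had an intensity of 660 with TNFα, 599 with IL1β, 323 with LPS and 614 with PBS. It was 1.90-fold lower with LPS than with PBS, short of 2-fold. The other AGER probe set was below the floor on the LPS and PBS arrays. TLR4, the receptor for LPS and for calprotectin, had an intensity of 413 with TNFα, 66.0 with IL1β, 83.8 with LPS and 82.2 with PBS. This probe set was above near background with TNFα alone, at least 3.82-fold above PBS. The 2 other TLR4 probe sets were near background on all 4 arrays, at 75 and 80 with TNFα against 63.5 and 79.3 with PBS, so the TLR4 difference rests on 1 of 3 sets. BSG (basigin), a receptor for S100A9, stayed between 2271 and 3108. ALCAM, another S100 receptor, was 7.04-fold higher with TNFα, 7.29-fold with IL1β and 10.1-fold with LPS. Of the 8 receptor genes 2 were higher with TNFα, 1 with IL1β and 1 with LPS, and none were lower.

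Among 12 intracellular partners none were higher or lower with TNFα or IL1β, and with LPS 1 was higher and 2 were lower. With LPS 8.83% of all genes at the floor were higher and 7.42% lower. ANXA2, the partner of S100A10, had an intensity of 15456 with TNFα, 15580 with IL1β, 16599 with LPS and 9975 with PBS. The log2 differences of ANXA2 from PBS were 0.63, 0.64 and 0.73 in that order, all short of 2-fold. ANXA11, a partner of S100A6, was 2.20-fold higher with LPS, while ANXA6, another annexin that binds S100 proteins, was 5.91-fold lower.

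Factors studied at S100 promoters and a set of inflammatory genes give the setting. Of 13 such transcription factors 2 were higher and 1 lower with TNFα, 2 higher with IL1β, and 6 higher and 2 lower with LPS. Beside this and the next counts stand the shares of all genes at the floor. These were 3.37% higher and 3.4% lower with TNFα, 3.13% and 3.57% with IL1β, and 8.83% and 7.42% with LPS. CEBPD, an acute-phase factor of the C/EBP family, was 2.16-fold higher with TNFα and 8.67-fold higher with LPS. The factors KLF4 (3.41-fold) and FOS (3.37-fold) were higher with LPS, and both had 1 probe set. For HIF1A, the hypoxia factor, 2 probe sets disagreed. The brighter was 5.24-fold, 3.49-fold and 6.56-fold higher with TNFα, IL1β and LPS than with PBS. The other HIF1A set had an intensity of 1026 with TNFα, 1118 with IL1β, 1166 with LPS and 1066 with PBS, and its log2 differences were -0.06, 0.07 and 0.13. The counts of factors include HIF1A by its brighter set. Of 12 inflammatory mediators 6 were higher with TNFα, 6 with IL1β and 11 with LPS. The chemokine CXCL8 had an intensity of 4547 with TNFα, 2051 with IL1β, 3889 with LPS and 394 with PBS. IL6 had 1886, 1427, 6426 and 308 on the same arrays in the same order. CXCL8 and IL6 were thus high with LPS, where S100A8 and S100A12 were near background. Of 9 measured antimicrobial genes of epithelia, LTF (lactoferrin) was higher with TNFα (2.37-fold) and IL1β (2.12-fold). With LPS the antiproteases SLPI (5.86-fold) and PI3 (4.03-fold) were higher.

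S100A8, S100A9 and S100A12 are also myeloid cell genes, and some markers of myeloid cells, but not most, were higher on the cytokine arrays too. Of 23 such markers 7 were higher and 1 lower with TNFα, 7 higher and 1 lower with IL1β, and 2 higher and 4 lower with LPS. Among all genes at the floor, 3.37% were higher and 3.4% lower with TNFα, 3.13% and 3.57% with IL1β, and 8.83% and 7.42% with LPS. Of the 23 markers 14 reached the floor in the TNFα comparison, 15 in the IL1β comparison and 9 in the LPS comparison. Their summed intensity was 23336 with TNFα, 22935 with IL1β, 8040 with LPS and 15190 with PBS, and 18, 18, 10 and 15 of the 23 were above near background in that order. PTPRC, the pan-leukocyte phosphatase CD45, had an intensity of 1295 with TNFα, 1046 with IL1β, 81.5 with LPS and 91.5 with PBS, the same high and low arrays as S100A8. Of the other defining markers, ITGAM (CD11b) was near background on all 4 arrays. SPI1 had 72.2 with TNFα, 117.6 with IL1β, 161 with LPS and 123.6 with PBS, and ITGB2 was highest with PBS at 894. TYROBP, a myeloid signalling adaptor, had an intensity of 838 with TNFα, 1048 with IL1β, 82.3 with LPS and 801 with PBS. LYZ, lysozyme, had 5600 with TNFα, 10390 with IL1β, 209 with LPS and 6917 with PBS. PBS was thus low for PTPRC and high for TYROBP and LYZ. The part of the myeloid transcripts in the S100A8, S100A9 and S100A12 differences was not tested. In bulk RNA, fewer cells of a type and less RNA per cell cannot be told apart.

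**Figure D5:**
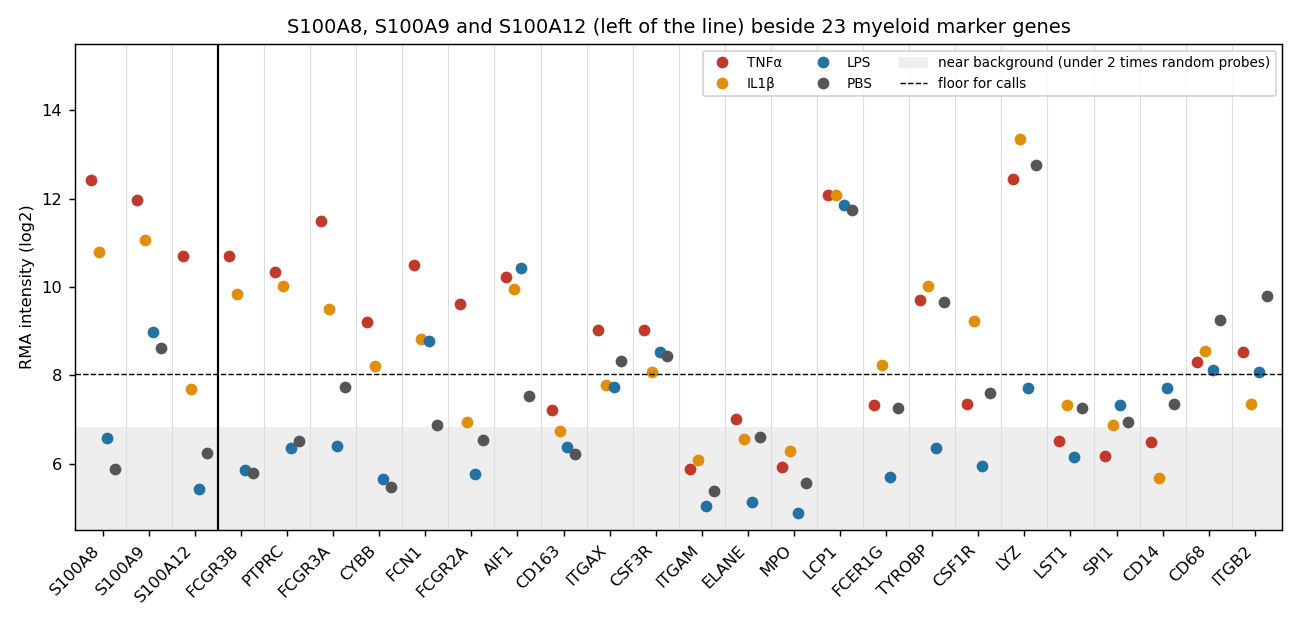
RMA intensity on the log2 scale of S100A8, S100A9 and S100A12 (left of the line) and of 23 myeloid marker genes, with 1 point per array, the floor dashed and the range near background in grey. FCGR3B, PTPRC and CYBB are high with TNFα and IL1β and near background with LPS and PBS, as S100A8 is, whereas TYROBP and LYZ are high with PBS too.

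The genes whose course over the 4 arrays was most like that of S100A8 or S100A9 were then listed, by the Euclidean distance between log2 values centred on each gene's own mean, among 10270 genes. For S100A8 they were FCGR3B (distance 1.17), PTPRC (1.96), CYBB (2.31), FCGR3A (2.42) and S100A12 (2.48). FCGR3B and FCGR3A are Fc receptors of neutrophils, natural killer cells and macrophages, and CYBB is the phagocyte oxidase subunit. For S100A9 the 5 nearest included CYBB (0.46), MNDA (0.50), IGSF6 (0.51) and CYRIA (0.59). MNDA is a nuclear antigen of myeloid cells. With 4 arrays such a likeness rests on 4 values per gene and describes these arrays only.

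Heart muscle transcripts differed on the LPS array as well, in 6 of 14 markers, all lower than with PBS. In that comparison 7.42% of all genes at the floor were lower. Their summed intensity was 57275 with TNFα, 64115 with IL1β, 16347 with LPS and 43261 with PBS. The largest value in each sum was that of ACTC1 (21145, 28777, 12945 and 17961 in that order). It was only 1.39-fold lower with LPS than with PBS, short of 2-fold. Cardiac myosin gene MYH6 read 14709 with TNFα, 17101 with IL1β, 81.3 with LPS and 9470 with PBS. MYH6 and LYZ were thus high with PBS, where S100A8 was near background. The part of these transcripts in the S100 differences between LPS and the other arrays was not tested. None of 9 fibroblast markers was higher than with PBS on any array. Only 1 of them, the collagen gene COL1A2, was lower with LPS (3.11-fold), beside the same 7.42% of all genes. The summed intensity of the fibroblast list was 1742 with TNFα, 1658 with IL1β, 1025 with LPS and 1729.9 with PBS. The defining lymphocyte markers CD3E and MS4A1 were near background on all 4 arrays.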

How the data were processed

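KYSE410 RNA from 4 conditions was copied to cDNA, labelled with Cy3 and hybridised to 1 NimbleGen array each, per the labels' protocols. Per the file headers and names, the deposited values are linear RMA intensity for each probe set. No source used here names the software. Probe sets of the members had 3 probes each. The authors' series value table held the same intensity values, with a largest difference of 0.

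Accessions were matched without versions to RefSeq GRCh38.p14 for names, and 18866 of 45033 probe sets matched 1 symbol. A gene took its brightest probe set. No source used here names the build of the arrays, so coordinates are those of RefSeq promoters alone, in which all 10 members were found. Differences of log2 intensity were computed for 6 pairs of arrays, with no test, since each condition had 1 array. The size rule and the motif search were tested on simulated data. Named genes were the S100 family, up to 4 genes of a list at least 2-fold different by size, AGER, TLR4, BSG, ANXA2, CXCL8 and IL6, and the 5 most similar genes. Defining cell type markers were added to these, and a few genes that met the rule are not reported here. The members, lists and limits were chosen with earlier results of these data known. Results were recomputed at thresholds of 1.5-fold and 3-fold, with the floor removed or raised to percentile 75, and with sets of a gene averaged. Loess, quantile normalization, an offset of 50.9 before log2, the series table and a background of all probe sets were also tried. The work used pandas 2.3.3 and numpy 2.4.6 in Python 3.11.15, with loess from statsmodels 0.14.6 and plots from matplotlib 3.10.9.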

Additional observations from a re-analysis of the deposited data

How the results depend on the processing

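The counts of S100 members called were within 1.5 times the reported count in 56 of 60 recomputations, and none of the called differences changed sign. The 4 exceptions came from the fold threshold. At 1.5-fold, 5 members instead of 3 differed between LPS and PBS (with S100A11 higher and S100A4 lower added), and 4 instead of 2 between TNFα and IL1β (with S100A9 and S100A4 added). At 3-fold, S100P alone remained of 3 between LPS and PBS (1 member), and 3 of 5 between LPS and IL1β (S100P, S100A8 and S100A9). The series table, 1 of the 10 alternatives of each comparison, held the same values, so its recomputations could not differ. A count can also stay within the limit while a member is lost. S100P with TNFα against PBS and S100A11 with LPS against TNFα were each called in 8 of 10 alternatives. The offset before log2 lowered differences taken from values near background, for example S100A8 with TNFα minus PBS (5.64 in place of 6.53), while S100A8 and S100A9 were called in all 10 alternatives for TNFα and for IL1β against PBS. No paired analysis was possible because each condition had 1 array, and no array could be left out.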
